A study of Mus musculus with 8 samples.

Results

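The genes described here are 45 genes of DNA replication, which encode the proteins that prepare, open and copy the genome in S phase. They were chosen by name, and each was found through the RefSeq transcript accession of its array probe, with the brightest probe over the 8 arrays standing for the gene. All 45 were found, and all 45 were among the 28088 features tested. In total, 35 of the 45 were well above background on every array. A further 9 (Orc1, Cdc6, Gmnn, Gins4, Cdc7, Prim2, Pold2, Pole2 and Rfc3) missed that mark on deficient LSK replicate 2 and on no other array, and Pola2 missed it there and on deficient GMP replicate 1.

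Replication is prepared in G1, when the origin recognition complex (Orc1, Orc6), Cdc6 and Cdt1 load the MCM helicase (Mcm2 to Mcm7) onto DNA, a step that geminin (Gmnn) blocks later in the cycle. The kinase Cdc7 with its partner Dbf4 then starts the helicase together with Mcm10, Cdc45 and the GINS subunits. After that, the primase and the polymerases alpha, delta and epsilon copy the strands, together with the PCNA clamp and its loader RFC. Many of these genes are transcribed under E2F factors when a cell leaves G1, and their mRNA level is widely used to describe how much of a cell population is cycling. In bone marrow, haematopoietic stem cells divide rarely, whereas committed progenitors such as GMP divide often.

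The arrays compared progenitors sorted from the bone marrow of female C57/Bl6 mice aged 12 weeks, wild type or deficient in ACKR1, an atypical chemokine receptor. The ACKR1-deficient line was on a C57Bl/6J background after backcrossing and was bred from heterozygotes, the wild-type mice were littermates, and all were kept specific pathogen-free with no treatment named. LSK cells (lineage-negative, Sca1-positive, cKit-positive) include stem cells and multipotent progenitors, and GMP cells (lineage-negative, Sca1-negative, cKit-positive, CD34-positive, CD16/32-positive) are granulocyte-macrophage progenitors. Each of the 4 groups (wild-type LSK, deficient LSK, wild-type GMP, deficient GMP) had 2 arrays. Whether the arrays of a group came from separate mice or from a pool is not stated, so the p-values cover only how far these samples spread, which may be technical.

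Because E2F factors are tied to these genes, the promoter windows of the members in RefSeq (GRCm38.p6) were searched for 4 E2F-type octamers (TTTGGCGC, TTTCCCGC, TTTGCCGC and TTTCGCGC) on both strands. A window runs from 250 bases before the start of a gene to 50 bases after it, and 37 of the 45 genes had at least 1 in the table (44 windows in all). A match was present in 14 of 44 windows (31.8%), against 2.26% of all 32851 windows and 1 of 26 windows of the mitosis genes (3.85%). The 14 genes were Cdc6, Cdt1, Gins3, Lig1, Mcm3, Mcm5, Mcm6, Mcm7, Orc1, Pola1, Pold1, Pole2, Rfc3 and Uhrf1. Mcm6 had 3 matches, the most of any member. The stretches below are the 180 bases before the start of 3 helicase genes and 2 licensing genes with a match, and of Tk1, which had none and had the smallest p of the members between wild-type GMP and LSK. Capitals mark the matches, and the longer runs of capitals in Mcm5 and Mcm6 are 2 overlapping matches on opposite strands.
Mcm5, chr8:75109329-75109508, plus strand: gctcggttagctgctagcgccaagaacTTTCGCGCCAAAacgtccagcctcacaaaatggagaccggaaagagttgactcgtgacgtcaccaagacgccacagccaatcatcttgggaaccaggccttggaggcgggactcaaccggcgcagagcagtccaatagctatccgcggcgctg
Mcm6, chr1:128359706-128359885, minus strand: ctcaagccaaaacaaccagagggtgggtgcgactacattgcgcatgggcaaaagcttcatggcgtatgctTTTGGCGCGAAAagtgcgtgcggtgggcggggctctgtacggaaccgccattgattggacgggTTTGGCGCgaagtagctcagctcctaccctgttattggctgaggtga
Mcm7, chr5:138171884-138172063, minus strand: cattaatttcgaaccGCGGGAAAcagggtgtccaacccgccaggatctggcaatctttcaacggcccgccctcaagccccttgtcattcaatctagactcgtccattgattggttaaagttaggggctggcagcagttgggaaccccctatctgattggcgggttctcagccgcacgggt
Orc1, chr4:108579274-108579453, plus strand: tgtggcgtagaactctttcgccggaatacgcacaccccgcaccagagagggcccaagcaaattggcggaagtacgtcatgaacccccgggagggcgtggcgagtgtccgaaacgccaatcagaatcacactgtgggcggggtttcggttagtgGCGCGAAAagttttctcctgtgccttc
Cdc6, chr11:98907971-98908150, plus strand: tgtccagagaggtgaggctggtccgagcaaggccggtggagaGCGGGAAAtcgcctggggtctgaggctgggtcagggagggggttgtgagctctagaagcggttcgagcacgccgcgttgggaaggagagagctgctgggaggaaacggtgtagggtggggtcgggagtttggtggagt
Tk1, chr11:117826015-117826194, minus strand: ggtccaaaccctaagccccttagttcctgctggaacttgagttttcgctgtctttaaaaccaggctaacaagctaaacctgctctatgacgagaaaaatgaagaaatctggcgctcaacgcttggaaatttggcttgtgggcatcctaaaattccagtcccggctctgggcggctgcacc
The matches in Mcm6 begin 110, 106 and 47 bases before the start, and those in Mcm5 begin 153 and 149 bases before it. A CCAAT box (CCAAT, both strands) stood in 25 of 44 member windows (56.8%, against 37.4% of all windows) and a GC box (GGGCGG, both strands) in 33 of 44 (75%, against 35.7%). The CHR element of mitotic genes (TTTGAA, both strands) stood in 8 of 44 (18.2%, against 17.9%), compared with 19 of 26 windows of the mitosis genes (73.1%). These are descriptions of letters in a window and do not show binding.

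All levels are log2 signal minus the 75th percentile of the same array, so 1 unit is a doubling, and each level is that of a single probe and is not set against another probe. Deficient LSK replicate 2 had a 75th percentile of signal of 24.6 and 34.3% of spots well above background, whereas the other 7 arrays had 196 to 766 and 62.5% to 73.1%. All deficient samples lay in 1 column of the slide and all wild-type samples in the other, so slide column and genotype cannot be told apart. In LSK the Ackr1 probe read −0.65 and −1.04 for wild type and −0.69 and −0.85 for deficient mice, and in GMP −0.49 and −0.44 for wild type and −0.063 and −0.15 for deficient mice. It was therefore no lower on the arrays labelled deficient, and since the deleted part of the gene is not given in the sources used here, this does not check the labels. Of the sorting markers, the probe for Ly6a (Sca1) read 1.84 and 3.80 in wild-type LSK but also 2.84 and 3.12 in wild-type GMP. Fcgr3 (CD16) was at −3.87 and −2.42 in wild-type LSK and at 2.18 and 3.42 in wild-type GMP. Fcgr3 thus set the populations apart in wild-type mice but not in deficient mice, and Ly6a set them apart in neither genotype. Ly6a read 0.37 and −1.06 in deficient LSK and −0.16 and 2.24 in deficient GMP. Fcgr3 read −0.74 and −2.96 in deficient LSK and −0.75 and 2.21 in deficient GMP. Kit read 4.32 and 5.10 in wild-type LSK and 4.20 and 1.69 in deficient LSK. Summed markers of maturing neutrophils and of erythroid cells moved with genotype. The log2 of the summed level of 10 maturing neutrophil markers (such as S100a9, Camp and Ltf) was 10.3 to 11.7 on the 4 deficient arrays and 1.88 to 5.43 on the 4 wild-type arrays, with 9 to 10 and 6 to 9 markers above background. For 12 erythroid markers (such as Hba-a2 and Alas2) it was 10.6 to 13 on deficient and 3.12 to 5.81 on wild-type arrays, with 11 to 12 and 8 to 11 above background. Of the neutrophil list, Cebpe did not rise in GMP, where it read 5.05 and 4.71 in wild type and 4.96 and 4.46 in deficient mice. No marker of either list was at 0 signal, and the part of these markers in the genotype differences below was not tested.

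**Figure D1:**
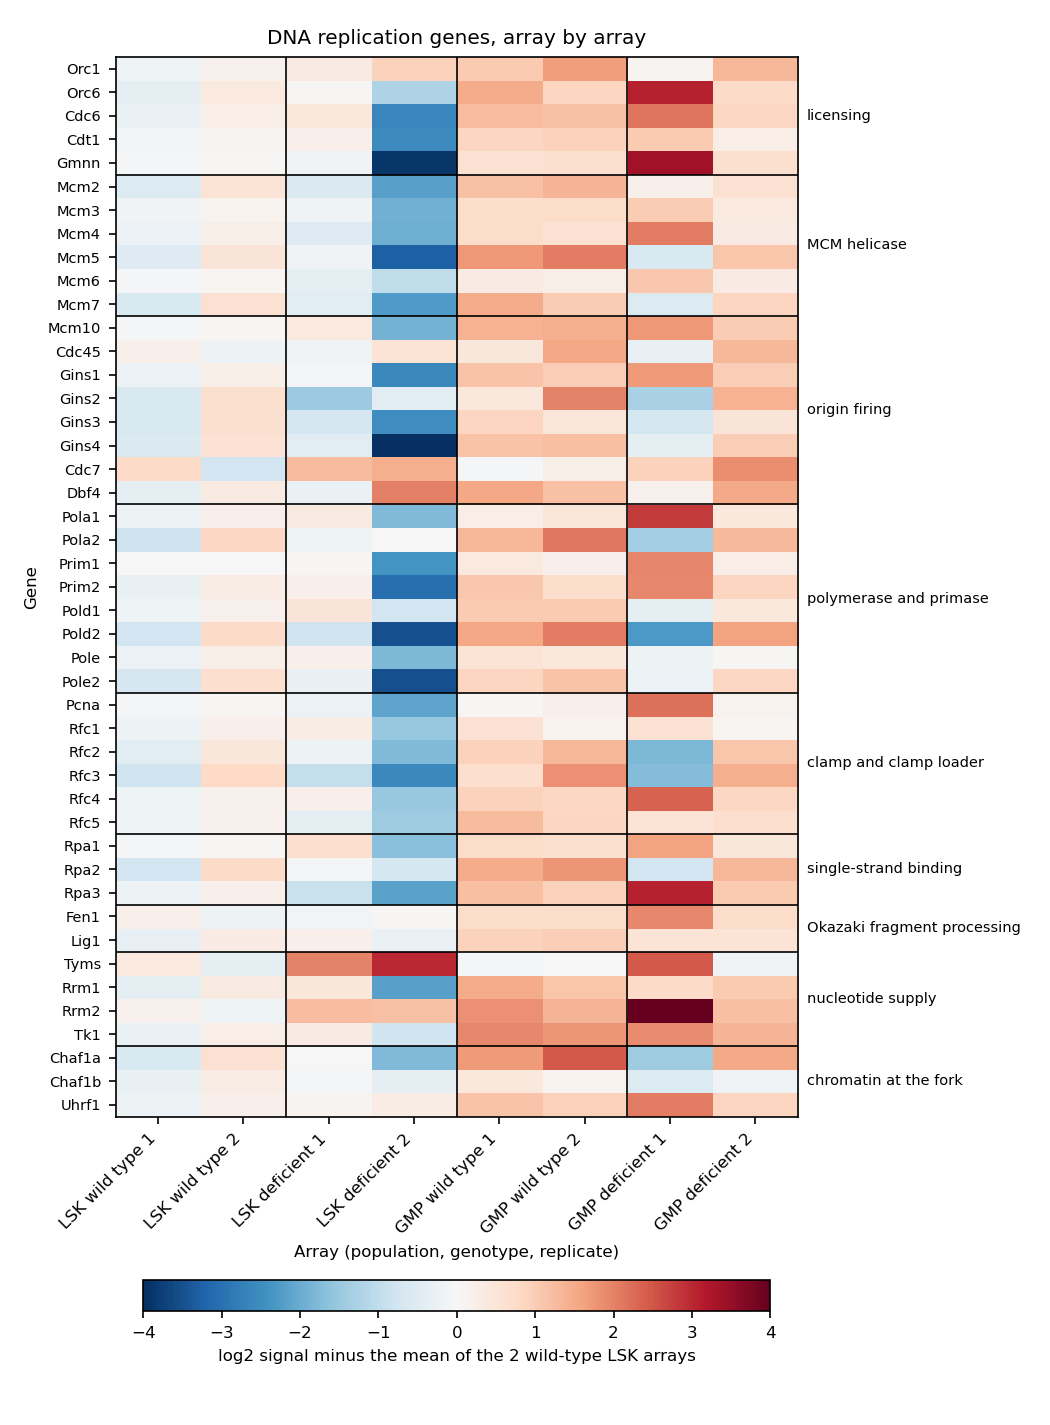
Heat map of the 45 replication genes (rows, grouped by role) on the 8 arrays (columns), each cell being log2 signal minus the mean of both wild-type LSK arrays for that gene (blue lower, red higher). The wild-type GMP columns are mostly red, deficient LSK replicate 2 is mostly blue, and deficient GMP replicate 1 mixes dark red (Rrm2, Gmnn) with blue (Pold2, Rfc2).

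Between populations of wild-type mice, the replication genes read higher in GMP than in LSK as a group, although no single gene passed the test. The difference (GMP minus LSK) was above 0 for 44 of 45 genes (36 of 45 after quantile normalization), with a median of 1.04 against 0.015 over all features, and it ran from −0.03 for Tyms to 2.08 for Chaf1a. Both GMP arrays lay above both LSK arrays for 37 of the 45 genes, and 28.5% of all features did so. None was called by limma at a Benjamini-Hochberg adjusted p under 0.05, where 1.85% of all features were called in either direction. A single member, Tk1, was higher at an unadjusted p under 0.05 (1 of 45, against 2.90% of all features). In bulk RNA, fewer cycling cells and less replication mRNA per cell cannot be told apart.

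The largest wild-type differences belonged to genes of several steps. Chaf1a, the large subunit of the chromatin assembly factor that places histones behind the fork, read 0.71 and 1.91 in LSK and 3.01 and 3.76 in GMP, a difference of 2.08 (SE 1.03, adjusted p = 0.686). Mcm5, a subunit of the helicase ring, read 3.35 and 4.36 in LSK and 5.58 and 5.91 in GMP, a difference of 1.89 (SE 1.04, adjusted p = 0.769). Tk1, the thymidine kinase of the salvage pathway, read 2.71 and 3.26 in LSK and 4.91 and 4.77 in GMP. For these 3 genes both GMP arrays were above both LSK arrays. The Tk1 difference was 1.85 (SE 0.68, 95% interval 0.34 to 3.36), with an unadjusted p of 0.0214 and an adjusted p of 0.384. With limma's array weights it passed the test (adjusted p = 0.019), the sole member of 45 to do so under that setting, where 7.87% of all features were called and 2.77% called higher. Pold2, a subunit of polymerase delta, differed by 1.79 (SE 1.28) and Pola2, a subunit of polymerase alpha, by 1.72 (SE 0.95), and their wild-type arrays did not overlap either.

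At the other end, 5 genes differed little between the wild-type populations. Tyms, thymidylate synthase, read −0.94 and −1.70 in LSK and −1.37 and −1.33 in GMP, and Cdc7 read −1.62 and −3.18 in LSK and −2.46 and −2.18 in GMP, so that the populations overlapped for both. The differences were −0.03 (95% interval −2.02 to 1.95) for Tyms and 0.08 (95% interval −1.56 to 1.72) for Cdc7, intervals wide enough to hold the median of the group. Pcna, the sliding clamp, differed by 0.13, Chaf1b by 0.28 and Mcm6 by 0.29, and after quantile normalization these 3 were at −0.66, −0.37 and −0.30. Chaf1b and Chaf1a encode subunits of the same factor and stood near opposite ends of the list.

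Grouped by role, every group had a wild-type median above 0. The counts without overlap below stand beside 28.5% of all features with both GMP arrays above both LSK arrays. The licensing genes had a median difference of 1.17, with 5 of 5 above 0 and 5 of 5 without overlap, and the MCM helicase 0.99 with 6 of 6 without overlap. For origin firing the median was 1.12 (8 of 8 above 0, 5 without overlap) and for the polymerases and primase 0.94 (8 of 8 above 0, 8 without overlap). The clamp and its loader had 0.98 (3 of 6 without overlap), the single-strand binding RPA genes 1.07 (3 of 3) and Okazaki fragment processing 0.85 (2 of 2). Nucleotide supply had 1.44, with Tyms as its single gene below 0, and the chromatin genes had 1.03 (2 of 3 without overlap). Role medians ran from 0.85 to 1.44.

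**Figure D2:**
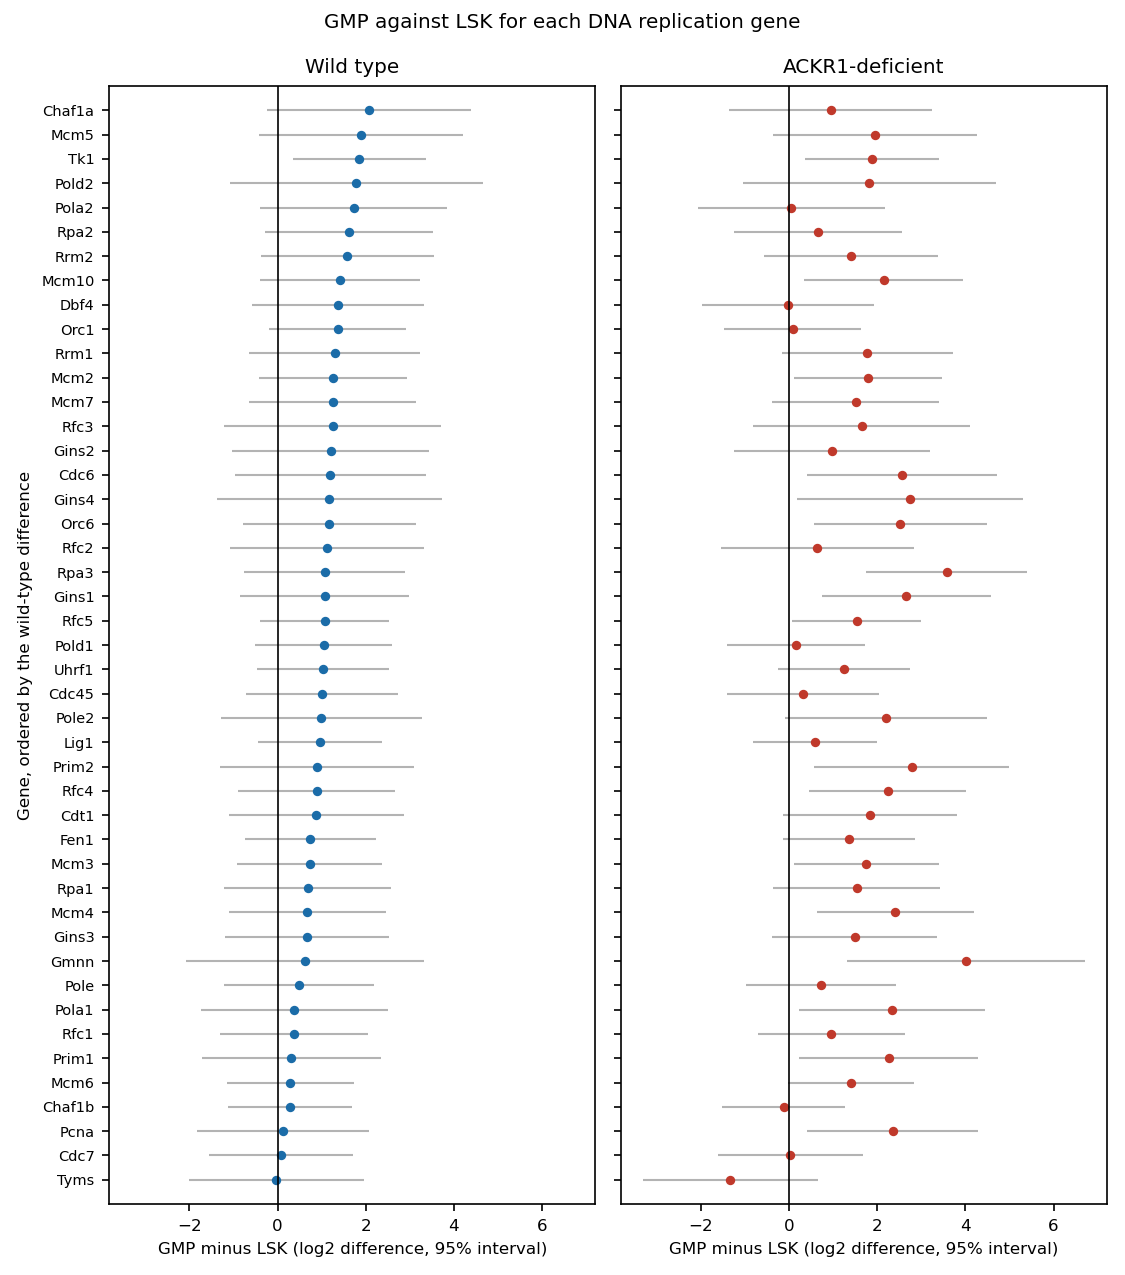
GMP minus LSK (log2 difference, x axis) for each of the 45 genes (y axis, ordered by the wild-type value) in wild type (left, blue) and ACKR1-deficient samples (right, red), with 95% limma intervals as grey lines. In wild type 44 of 45 points lie right of 0 and all intervals but that of Tk1 cross it; in deficient samples the points spread from −1.34 (Tyms) to 4.01 (Gmnn).

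The gene with the brightest probe in each role shows how the arrays compare within that probe. Values are given for both LSK arrays of wild-type mice, both of deficient mice, and then the GMP arrays in that order. Cdt1 (licensing) read 4.45 and 4.68, then 4.76 and 2.01, then 5.42 and 5.48, then 5.62 and 4.82. Mcm6 (helicase) read 7.38 and 7.56, then 7.09 and 6.46, then 7.80 and 7.71, then 8.55 and 7.81. Gins3, a GINS subunit, read 3.86 and 5.12, then 3.81 and 2.01, then 5.36 and 4.96, then 3.78 and 5.02. In all 3 genes deficient LSK replicate 2 was the lowest of the 8 arrays. Prim1, the catalytic primase subunit, read 4.45 and 4.43, then 4.53 and 2.05, then 4.84 and 4.65, then 6.40 and 4.72. Pcna read 5.94 and 6.09, then 5.79 and 3.90, then 6.05 and 6.23, then 8.20 and 6.17. Rpa1, the largest RPA subunit, read 4.67 and 4.79, then 5.40 and 3.04, then 5.46 and 5.37, then 6.33 and 5.18. For these 3 genes the lowest array was again deficient LSK replicate 2, and the highest was deficient GMP replicate 1.

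The other 3 leading genes did not share the low value. Fen1, the flap endonuclease of Okazaki fragments, read 5.01 and 4.59, then 4.68 and 4.85, then 5.55 and 5.54, then 6.71 and 5.53 in that order. Rrm2, the regulated subunit of ribonucleotide reductase, read 4.41 and 4.07, then 5.46 and 5.40, then 6.05 and 5.59, then 8.24 and 5.45. Uhrf1, which directs methylation of newly made DNA, read 4.42 and 4.81, then 4.72 and 4.92, then 5.75 and 5.55, then 6.67 and 5.46. In each of the 3, deficient LSK replicate 2 lay at or above wild-type LSK replicate 2, and every wild-type GMP array was above every LSK array.

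Replicates of the deficient groups differed more than those of wild type. The median absolute gap between the 2 arrays of a group over the 45 genes was 0.50 for LSK and 0.28 for GMP in wild type, but 1.71 for LSK and 1.31 for GMP in deficient mice. Over all features the same gap was 0.60, 0.32, 1.29 and 0.92. In LSK the median level of the 45 genes was 2.99 and 3.67 on the wild-type arrays and 3.30 and 1.71 on the deficient ones, and in GMP it was 4.42 and 4.19 on the wild-type arrays and 4.20 and 3.87 on the deficient ones. The mitosis genes had their lowest array median at the same place, at 0.17 in deficient LSK replicate 2 against 1.22 to 3.0 elsewhere.

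**Figure D3:**
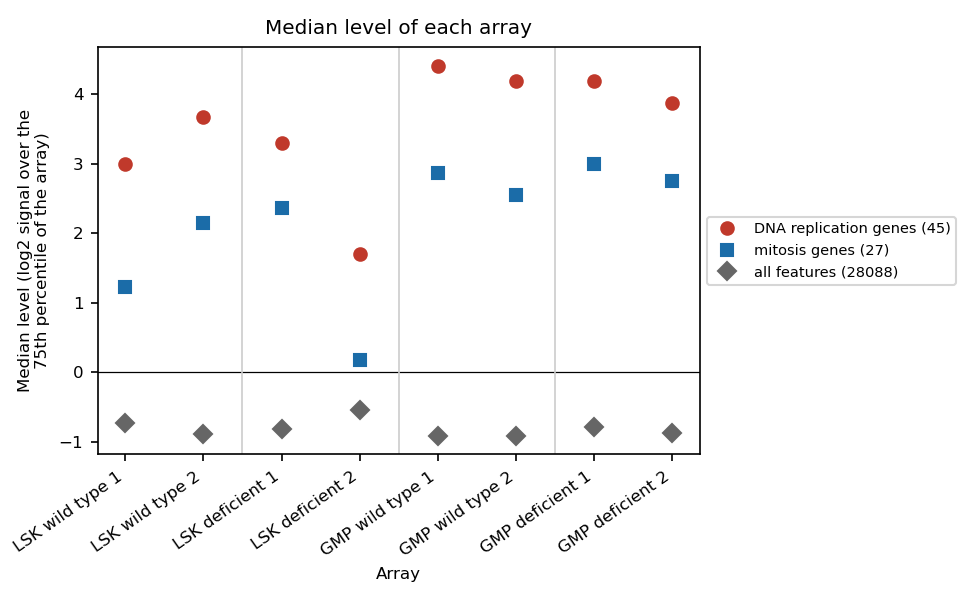
Median level (log2 signal relative to each array's 75th percentile, y axis) of the 45 replication genes (red circles), 27 mitosis genes (blue squares) and all 28088 features (grey diamonds) on each of the 8 arrays (x axis). Replication and mitosis genes are lowest in deficient LSK replicate 2 (1.71 and 0.17), where the median of all features (−0.55) is the highest of the 8 arrays.

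In deficient mice, too, the replication genes read higher in GMP than in LSK, with larger single values and a wider spread. The difference was above 0 for 42 of 45 genes, with a median of 1.54 against −0.067 over all features, and 24 of 45 had both GMP arrays above both LSK arrays (18.4% of all features). At an unadjusted p under 0.05, 17 of 45 were higher, against 9.62% of all features. By limma none was called, as among all features (0%), and the smallest adjusted p was 0.140, for Rpa3. The 2 deficient LSK arrays decide these values: without replicate 2 the median was 0.84 with 40 of 45 above 0 and none called, and without replicate 1 the median was 2.44 and 19 were called, all higher (15.2% of all features were called and 7.68% called higher), among them Cdc6, Cdt1, Gmnn, Mcm2 to Mcm5 and Mcm10. With normexp background correction 2 were called higher, Mcm4 and Rpa3, where 3.01% of all features were called and 2.81% called higher.

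The largest deficient differences were those of Gmnn and Rpa3. Gmnn, geminin, read 1.53 and −2.22 in LSK and 5.02 and 2.31 in GMP, and was above background on 1 of the 2 LSK arrays. Its difference was 4.01 (SE 1.21, adjusted p = 0.183), or 2.13 without LSK replicate 2, and it was 0.62 in wild type. Rpa3, the smallest RPA subunit, read 2.32 and 1.05 in LSK and 6.28 and 4.26 in GMP, a difference of 3.58 (SE 0.82). Both genes had GMP arrays wholly above the LSK arrays. Prim2 (2.78), Gins4 (2.75) and Gins1 (2.66) followed, the first 2 of these with 1 of 2 LSK arrays above background. Tyms was lowest at −1.34 (SE 0.89, adjusted p = 0.465), followed by Chaf1b at −0.13, Dbf4 at −0.03, Cdc7 at 0.03 and Pola2 at 0.05. The wild-type and deficient comparisons share no arrays.

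Deficiency in LSK cells went with lower replication gene signal on 1 of the 2 arrays. Deficient minus wild type was below 0 for 38 of 45 genes, with a median of −0.86 against 0.11 over all features. Deficient arrays lay wholly below wild type for 11 of 45 genes, against 21.1% of all features, and wholly above for 4 (Orc1, Rrm2, Cdc7 and Tyms), against 16.4%. By limma none was called, where 0.239% of all features were, and 1 had an unadjusted p under 0.05 (8.83% of all features). Array by array, replicate 1 lay below both wild-type arrays for 12 genes (37.0% of all features), within them for 18 and above for 15 (25.6%), whereas replicate 2 lay below for 33 (39.1%) and above for 7 (50.2%). Without replicate 2 the median was −0.058, with 25 of 45 genes below 0 and none called. Without replicate 1 it was −1.76, and 5 genes were called lower (Cdt1, Gins1, Gins4, Prim2 and Pole2), where 10% of all features were called and 4.03% called lower.

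The lowest differences in LSK belonged to Gins4, Pold2, Gmnn, Pole2 and Rfc3, none of which was above background on deficient replicate 2. Gins4 read 0.73 and 1.86 in wild type and 0.83 and −3.11 in deficient LSK, a difference of −2.43 (SE 1.15, adjusted p = 0.550) that became −0.46 without replicate 2. Pold2 read −0.36 and 1.16, then −0.40 and −3.12, a difference of −2.16 (SE 1.28). Deficient replicate 1 was inside or close to the wild-type range for both. Gmnn differed by −2.01, Pole2, a polymerase epsilon subunit, by −1.92 and Rfc3, a clamp loader subunit, by −1.78. Their values without replicate 2 were −0.14, −0.30 and −0.97.

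A few genes of nucleotide supply and origin firing read higher in deficient LSK on both arrays. Tyms read −0.94 and −1.70 in wild type and 0.66 and 1.71 in deficient LSK. Its difference was 2.50, a 5.65-fold higher signal (SE 0.89 on the log2 scale, unadjusted p = 0.0188, adjusted p = 0.540), and it was 1.97 without replicate 2. Cdc7 read −1.62 and −3.18 in wild type and −1.12 and −0.94 in deficient LSK, with 1 of 2 deficient arrays above background, a difference of 1.37 (SE 0.73) that was 2.15 without wild-type replicate 1 and 0.59 without wild-type replicate 2. Rrm2 differed by 1.20 (SE 0.88) with deficient arrays at 5.46 and 5.40 above wild type at 4.41 and 4.07. Tyms, Cdc7 and Rrm2 kept both deficient arrays above both wild-type arrays. Dbf4, the partner of Cdc7, differed by 0.88, but its deficient arrays stood at −1.03, within the wild-type arrays (−1.11 and −0.41), and at 1.26, above them, and it was at −0.27 without replicate 2. Orc1, the ATPase of the origin recognition complex, differed by 0.64, with 1 of 2 deficient arrays above background.

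**Figure D4:**
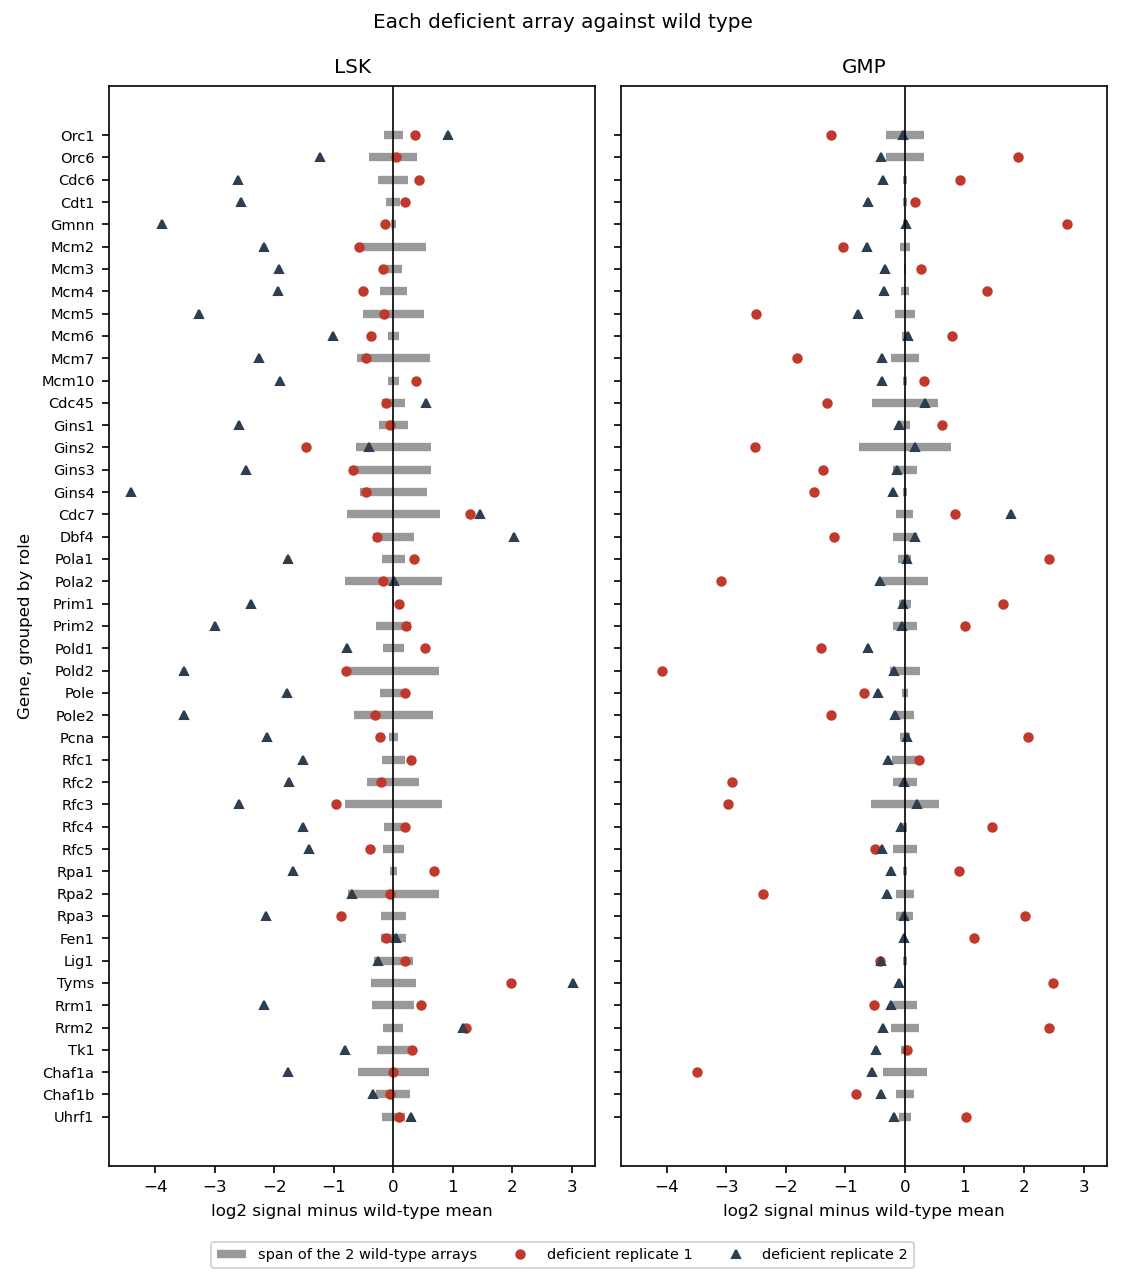
Each deficient array minus the wild-type mean of its population (log2, x axis; circle, replicate 1; triangle, replicate 2) for the 45 genes by role (y axis) in LSK (left) and GMP (right), with the span of both wild-type arrays as a grey bar. In LSK replicate 2 lies left of the bar for 33 genes (39.1% of all features). In GMP replicate 1 lies outside the bar for 44 genes, 22 on each side (32.4% of all features left, 56.3% right).

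In GMP cells the genotype difference was small at the median and split by gene. Deficient minus wild type was below 0 for 27 of 45 genes and above 0 for 18, with a median of −0.23 against 0.16 over all features. Deficient arrays lay wholly below wild type for 14 genes, against 19.6% of all features, and wholly above for 2 (Cdc7 and Mcm6), against 19.8%. By limma none was called, where 0.146% of all features were, and none of 45 had an unadjusted p under 0.05, against 4.82% of all features. The smallest adjusted p was 0.956. After scaling to the array median the GMP median was −0.52, and the median of all features then was −0.13.

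Deficient GMP replicate 1 lay outside the wild-type arrays for nearly all replication genes, in both directions, as it did for most of all features. It lay below both wild-type arrays for 22 genes (32.4% of all features), within them for 1 and above for 22 (56.3%), whereas replicate 2 lay below for 29 (43.9%), within for 14 and above for 2 (28.5%). Subunits of 1 complex parted on replicate 1. In the clamp loader, Rfc4 stood at 1.46 and Rfc2 at −2.91 relative to the wild-type mean, against −0.07 and −0.01 on replicate 2. Of polymerase alpha, Pola1 stood at 2.43 and Pola2 at −3.09, and of RPA, Rpa3 stood at 2.01 and Rpa2 at −2.38. In the helicase, Mcm4 stood at 1.38 and Mcm5 at −2.51. On replicate 2 these 8 genes lay between −0.78 (Mcm5) and 0.04 (Pola1), so the parting rests on a single array.

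The lowest GMP differences carried the same mark. Pold2 read 1.94 and 2.44 in wild type and −1.89 and 2.0 in deficient GMP, a difference of −2.13 (SE 1.28) that was −0.19 without replicate 1. Chaf1a read 3.01 and 3.76, then −0.10 and 2.84, a difference of −2.02 (SE 1.03) that was −0.55 without it. Pola2 differed by −1.75, with 1 of 2 deficient arrays above background, Mcm5 by −1.65 and Rfc2 by −1.46. Of these 5 genes, Chaf1a, Pola2 and Mcm5 had both deficient arrays below both wild-type arrays. Among the highest, Gmnn differed by 1.37, Pola1, the catalytic subunit of polymerase alpha, by 1.23, Tyms by 1.20 and Pcna by 1.05. Without replicate 1 these 4 were at 0.01, 0.04, −0.09 and 0.03. Cdc7 read −2.46 and −2.18 in wild type and −1.47 and −0.54 in deficient GMP, a difference of 1.32 (SE 0.73, adjusted p = 0.956), and was at 1.79 without replicate 1 and at 0.85 without replicate 2.

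Averaged over both populations, deficient minus wild type was below 0 for 36 of 45 genes with a median of −0.40, against 0.16 over all features. None was called by limma, where 0.602% of all features were, and 4 of 45 had an unadjusted p under 0.05, against 12.2% of all features. Tyms was 1.85 higher (SE 0.63, adjusted p = 0.368) and Cdc7 1.34 higher (SE 0.52, adjusted p = 0.384), whereas Pold2 was at −2.15 (SE 0.91, adjusted p = 0.396) and Mcm5 at −1.68 (SE 0.73, adjusted p = 0.404). Gins4 (−1.65), Rfc3 (−1.58) and Chaf1a (−1.45) were next lowest, and Rrm2 (1.11), Uhrf1 (0.31) and Fen1 (0.27) next highest. Single arrays moved most of these values. Without deficient GMP replicate 1 Pold2 was at −1.18, Rfc3 at −0.79, Chaf1a at −0.72, Tyms at 1.20, Rrm2 at 0.41, Uhrf1 at 0.01 and Fen1 at −0.03, and without deficient LSK replicate 2 Mcm5 was at −0.90 and Gins4 at −0.66. Cdc7 ran from 0.95 to 1.73 with any 1 array left out. Uhrf1 and Fen1 turned below 0 after scaling to the array median (−0.12 and −0.16). Without deficient LSK replicate 2 the median over the 45 was −0.018.

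The genotype difference in GMP less that in LSK was above 0 for 31 of 45 genes with a median of 0.48, and −0.32 without deficient LSK replicate 2. None was called, as among all features (0%), and none had an unadjusted p under 0.05, against 2.48% of all features. The largest values were those of Gmnn (3.38, SE 1.71), Rpa3 (2.51, SE 1.16), Pcna (2.22), Prim1 (1.96) and Pola1 (1.95), all at an adjusted p of 0.961, and the lowest those of Pola2 (−1.67), Dbf4 (−1.39), Tyms (−1.30), Orc1 (−1.28) and Chaf1a (−1.13). Without deficient LSK replicate 2 and deficient GMP replicate 1 the 5 largest were at 0.15, 0.86, 0.26, −0.13 and −0.31 in the same order.

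For 6 of the 45 genes more than 1 probe was kept, and some pairs disagreed. In GMP, deficient minus wild type was 0.70 by the brighter and −0.66 by the dimmer probe of Rfc4, 0.42 and −1.45 for Uhrf1, and −0.61 and 0.19 for Chaf1b. In LSK, the brighter probe of Pole, the catalytic subunit of polymerase epsilon, gave −0.80 and the dimmer 3.08. The dimmer probe of Pole had a mean level of only −4.78, against 3.67 for the brighter. For Uhrf1 the mean levels were −1.82 and 5.29, and the dimmer probe was named through a different transcript. They were 1.85 and 4.06 for Rfc4, and 4.50 and 4.73 for Chaf1b. For deficient minus wild type, the probe pairs of Cdc6 and Cdc7 had the same sign in both populations.

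Other genes of the same pathways were read as lists between wild-type populations, beside the 45. Of 40 further replication proteins 36 were above 0 in GMP minus LSK (median 0.84), as were 13 of 16 other nucleotide enzymes (median 0.84), 17 of 25 G1/S regulators (median 0.47) and 27 of 27 mitosis genes (median 1.18). The single member of these lists called in any comparison was Cdkn1c, an inhibitor of cyclin-dependent kinases that is high in quiescent stem cells, which fell by 4.41 in wild-type GMP against LSK (SE 0.70, adjusted p = 0.0133) and was at −3.23 in deficient mice (adjusted p = 0.140). The smallest p-values otherwise belonged to the cyclin Ccne1 (2.03, adjusted p = 0.213), the transcription factor Mybl2 (2.73, adjusted p = 0.127), the mitotic kinase Plk1 (2.08), the histone chaperone Asf1b (2.24), the RNase H2 subunit Rnaseh2c (1.58), and Shmt2 (1.99) and Cad (1.38) of nucleotide synthesis.

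Against genotype no member of these 4 lists was called in LSK, in GMP or on average. In LSK the medians were −0.57 for other replication proteins (34 of 40 below 0), −0.22 for nucleotide enzymes, −0.52 for G1/S regulators and −0.37 for mitosis genes. In GMP they were 0.028, 0.26, −0.13 and −0.034. Over all features the medians were 0.11 in LSK and 0.16 in GMP. The median level of the mitosis genes was 1.22 and 2.14 on the wild-type LSK arrays. On deficient LSK replicates 1 and 2 it was 2.37 and 0.17, so the lower mitosis signal in deficient LSK rests on replicate 2. The other lists were not read without that array. Cdkn1a, the p21 inhibitor of cyclin-dependent kinases, was at −2.58 in LSK (SE 1.09, adjusted p = 0.550) and −3.02 in GMP (SE 1.09, adjusted p = 0.895), with deficient arrays below wild type in both populations. E2f2, an activator E2F, was at 1.73 in LSK (adjusted p = 0.550), where Dctpp1, which clears dCTP, was at −1.83 and Dtymk, thymidylate kinase, at −1.61. In GMP, Shmt2 was at −2.02, Orc5 of the origin recognition complex at −2.13, E2f4 at −1.58 and Mybl2 at −1.43.

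Members with and without an E2F-type match were also described side by side. Between wild-type GMP and LSK the 14 genes with a match had a median of 1.01 (0.29 to 1.89), and the 23 genes with a window and no match a median of 1.07 (−0.03 to 2.08). In LSK, deficient minus wild type was −1.07 at the median with a match and −0.59 without, and in GMP −0.53 and −0.030. These values are descriptions of the named genes, without a test. Mcm5 and Mcm6, both with overlapping matches shown above, were at 1.89 and 0.29 between wild-type populations, and Tk1, without a match, at 1.85.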

How the data were processed

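The labels describe 8 one-colour arrays of LSK and GMP cells, labelled with Cy3 by a low-input kit. Per the file headers, Agilent Feature Extraction 10.7.3.1 read the spots of a design annotated on mm9, and the deposited processed signal is a background-corrected fluorescence intensity. The median and background signals are uncorrected intensities, per the file headers. The table of log2 values deposited by the authors matched the log2 processed signal after subtraction of the 75th percentile of the array and of each probe's median (r 0.9997 to 0.99997), and its column medians were 0.12, −0.27, 0.041, 1.25, −0.13, −0.14, 0.32 and −0.11. That leaves no scale, centring or direction unknown at this precision.

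Here log2 processed signal minus the 75th percentile was used, without control and outlier spots. A probe was kept where both arrays of some group had it well above background (39098 of 55681). Accessions were named through RefSeq (GRCm38.p6), which matched 26582 probes. No coordinates of that table were used beyond the printed promoters. limma 3.58.1 in R 4.3.3 fitted 4 group means (4 residual degrees of freedom), with Benjamini-Hochberg adjustment over 28088 features, after a check on simulated data. The number of arrays limits the precision. Figures were drawn with Python 3.11.15 and matplotlib 3.10.9.

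Named genes were, per comparison, the called members or else the 5 highest and 5 lowest, the brightest gene of each role, and of other lists the called genes or the 2 smallest p-values. Other genes named for a disagreement between arrays or probes were chosen after their values were seen. The members and lists were chosen with earlier results of these data known. The pathway list members Ccne2, Skp2 and Aurkb were not kept by the filter. Replicate numbers were checked as pairs. Over all features, same-numbered deviations correlated at −0.34 to 0.34, above 0.1 in some pairs of groups and not in others. Alternatives covered scaling, background correction, filters, the authors' values, array weights, replicate blocks, probe averaging and leaving arrays out.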

Additional observations from a re-analysis of the deposited data

Results flagged for a closer look

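Mcm6, a subunit of the helicase ring, was the single member whose deficient arrays lay on opposite sides of wild type in the populations. Over all features, 21.1% lay wholly below wild type in LSK and 19.8% wholly above it in GMP. The share of all features that did both was not counted, so Mcm6 is not shown to be unusual. Both deficient LSK arrays (7.09 and 6.46) lay below both wild-type LSK arrays (7.38 and 7.56), a difference of −0.69, and both deficient GMP arrays (8.55 and 7.81) lay above both wild-type GMP arrays (7.80 and 7.71), a difference of 0.42. The nearest deficient and wild-type GMP arrays were thus at 7.81 and 7.80, and without deficient GMP replicate 1 the GMP difference was 0.05. The difference between the populations was 1.11, with a limma adjusted p of 0.961.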

How the results depend on the processing

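No member was called in GMP, on average or in the difference between populations under any of the 19 alternatives. Of 60 named differences under 19 alternatives, 1063 values kept their direction and side of the threshold, 9 moved past it and 42 turned sign without being called; the filter on all 8 arrays left 10 members without a value. Array weights called 1 member in wild-type GMP against LSK (7.87% of all features) and normexp called 2 in deficient mice (3.01%). The median in GMP moved to −0.517 after scaling to the array median, and the wild-type population median to 0.559 after quantile normalization. Scaling also moved the median of all features in LSK from 0.11 to −0.46 (array median), −0.25 (quantile) or 0.41 (normexp).

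Leaving out 1 array, or deficient LSK replicate 2 with deficient GMP replicate 1, gave 0 to 5 called members and a median from −1.76 to −0.058 in LSK (the 5 without deficient LSK replicate 1, where 10% of all features were called), a median from −0.243 to 0.042 in GMP, from −0.318 to 1.39 for the difference between populations, and 0 to 19 called and a median from 0.774 to 2.44 for deficient GMP against LSK (the 19 without that array, where 15.2% were called). An arm of 1 array was assumed to vary like the others. Among averaged genotype differences, Fen1 was −0.16 (array median), −0.13 (normexp) and −0.068 to 0.56 leaving arrays out, and Uhrf1 −0.12, −0.26, −0.31 (mean of probes) and −0.044 to 0.61. Leave-out ranges crossing 0 were, in GMP, −0.092 to 2.48 for Tyms, in LSK −0.27 to 2.02 for Dbf4, and in the difference between populations −2.60 to 0.34 for Chaf1a, −2.54 to 0.44 for Dbf4, −0.31 to 3.14 for Pola1 and −0.13 to 3.20 for Prim1. Between deficient populations, Cdc7 was −0.18 (normexp) and −0.44 to 0.58, Chaf1b 0.48 (array median), 0.64 (normexp), 0.022 (mean of probes) and −0.33 to 0.076, Dbf4 0.58, 0.23, 0.028 (authors' values) and −1.18 to 1.80, and Pola2 −0.34 (normexp) and −1.29 to 1.48. Between wild-type populations, Mcm6, Pcna and Chaf1b were −0.30, −0.66 and −0.37 after quantile normalization, Tyms 0.29 (array median), 0.081 (quantile) and −0.41 to 0.35, Cdc7 −0.70 to 0.86 and Chaf1b −0.0048 to 0.57. Apart from the left-out arrays, the cause was not tested.

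With the replicate number as a block, 0 members were called in each comparison, and all features called went from 67 to 81 in LSK, 41 to 69 in GMP and 521 to 523 between wild-type populations. Same-numbered deviations correlated at −0.34 between the LSK groups and 0.26 between the GMP groups over all features. Crossing the LSK numbers, an alternative chosen after seeing the data, called 193 features in LSK and 0 members. The weak signal of deficient LSK replicate 2 limits what can be read from 10 members there.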

Other observations

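The gaps between replicates were compared across groups over the 45 genes. Replicate 1 minus replicate 2 correlated over the 45 genes at r = 0.60 between wild-type LSK and deficient GMP and at r = 0.60 between wild-type GMP and deficient GMP, against r = 0.34 and r = 0.26 over all features. Between wild-type LSK and wild-type GMP it was r = 0.24, and r = −0.13 over all features. Replicate 1 was the higher for 6 of the 45 genes in wild-type LSK and for 22 in each GMP group. The gap had the same sign for 25 genes between wild-type LSK and deficient GMP, and for 31 between the GMP groups. Pold2, Rfc3, Pola2, Chaf1a and Gins2 were lower on replicate 1 in these 3 groups, and the number of genes lower in all 3 was not counted. The 45 points share the same arrays and scaling, so this is a description across genes. In these groups replicate 1 also had the lower 75th percentile of signal (281 against 766, 353 against 594 and 196 against 470), and its part in the gaps was not tested. In deficient LSK, where replicate 2 had the lower signal, the correlations of the gaps with the other groups were −0.26, 0.20 and 0.12.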
